A study of Mus musculus with 24 samples.

Results

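Alpha-defensins are small cationic peptides that Paneth cells store in granules at the base of small intestinal crypts and release into the crypt lumen, where they kill bacteria. In the mouse they are made as inactive precursors that the matrix metalloproteinase MMP7 cuts, and they are encoded by a large cluster of near-identical genes on chromosome 8. The normal colon holds few or no Paneth cells, so defensin transcripts are used as a mark of small intestinal Paneth cells. The 10 genes described here are Defa3, Defa5, Defa17, Defa20, Defa21, Defa22, Defa23, Defa24, Defa26 and Defa30, a set listed by symbol and found through the Ensembl identifiers of the count files, which hold 45513 genes in all. They are 10 of 39 genes whose GENCODE M21 symbol starts with Defa, the other 29 being 12 protein-coding genes and 17 pseudogenes. The 10 lay on the plus strand of chromosome 8 between 21025545 (start of Defa21) and 21735471 (end of Defa24) on GRCm38, each with 2 exons.

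Counts came from 24 RNA-seq libraries of live EpCAM+tdTom+ cells sorted from the proximal 15 cm of the small intestine (SI) or from the colon, 24 h after a single 3 mg dose of tamoxifen. The mice carried Atoh1(WT)CreERT2 or Atoh1(9S/T-A)CreERT2, each with the R26RtdTom reporter, and are called WT and 9S/T-A below. In both lines a tamoxifen-inducible Cre follows the Atoh1 coding sequence at its own locus, and in 9S/T-A the ATOH1 protein has 9 serine or threonine phosphorylation sites changed to alanine. The mice were homozygous for the Atoh1 allele, heterozygous for the reporter, 8 to 16 weeks old and of C57BL/6 background. Each of the 4 groups of genotype and tissue had 6 libraries, numbered 2 to 7, of which 3 were from females. All groups thus share Cre, reporter and tamoxifen, no group had a native Atoh1 allele, and the sorted cells were those in which the Atoh1 locus was active. The cells were a mixture of secretory cells rather than Paneth cells alone: the 8 goblet cell markers summed to 316253 to 510218 CPM (counts scaled to a library of 1000000) in the SI libraries and the 10 defensins to 40061 to 83841 CPM. In such bulk samples fewer Paneth cells and less defensin RNA per Paneth cell cannot be told apart.

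Libraries held 35967875 to 65796932 gene-assigned counts. CPM below refer to the library size after trimmed mean of M-values (TMM) scaling over all 24 libraries. Of 60 pairs of libraries within a group, 0 had identical counts. Tissue was checked with 4 small intestinal genes, of which 3 (Gata4, Onecut2 and Pdx1) were called lower in colon in each genotype by edgeR. Gata4 was at 94.4 to 120 CPM in SI and 0.197 to 0.717 CPM in colon. Fabp6, a bile acid carrier of the distal small intestine, was scarce throughout and called higher in colon, at 0 to 0.263 CPM in SI and 1.40 to 2.97 CPM in colon.

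The peptide itself is written at the end of the coding sequence, in the second exon, and the last 105 coding bases before the stop codon are shown for the genes that carry the results below. They were read from the GENCODE M21 transcripts of GRCm38, 5′ to 3′ on the plus strand. Capitals mark bases that did not match Defa24, the most abundant of the 10, in a pairwise alignment. They include bases with no partner in Defa24, such as the last ones of Defa20, Defa21 and Defa22. Defa17 had the same 105 bases as Defa3, and Defa23 resembled Defa3 at 6 differences from Defa24 against 7. Defa24 lies at chr8:21735270-21735374, Defa30 at chr8:21135396-21135500, Defa3 at chr8:21288176-21288280, Defa26 at chr8:21618775-21618879, Defa20 at chr8:21510036-21510140, Defa21 at chr8:21026316-21026420, Defa22 at chr8:21163048-21163152 and Defa5 at chr8:21298174-21298278.
Defa24: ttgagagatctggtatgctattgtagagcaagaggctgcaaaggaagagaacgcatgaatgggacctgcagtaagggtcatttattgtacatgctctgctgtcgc
Defa30: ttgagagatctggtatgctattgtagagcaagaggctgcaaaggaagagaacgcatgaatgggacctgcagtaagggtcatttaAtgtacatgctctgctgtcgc
Defa3: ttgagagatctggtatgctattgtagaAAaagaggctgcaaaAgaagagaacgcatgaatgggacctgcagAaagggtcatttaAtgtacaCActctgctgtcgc
Defa26: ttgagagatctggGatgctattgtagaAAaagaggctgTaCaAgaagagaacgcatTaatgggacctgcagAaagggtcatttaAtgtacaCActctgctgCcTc
Defa20: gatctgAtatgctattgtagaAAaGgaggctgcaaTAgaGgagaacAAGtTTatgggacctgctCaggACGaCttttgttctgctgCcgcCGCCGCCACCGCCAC
Defa21: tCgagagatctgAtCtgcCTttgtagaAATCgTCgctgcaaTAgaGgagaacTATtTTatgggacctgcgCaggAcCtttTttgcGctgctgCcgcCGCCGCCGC
Defa22: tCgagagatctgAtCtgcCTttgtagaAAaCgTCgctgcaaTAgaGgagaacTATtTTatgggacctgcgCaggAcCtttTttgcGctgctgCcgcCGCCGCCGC
Defa5: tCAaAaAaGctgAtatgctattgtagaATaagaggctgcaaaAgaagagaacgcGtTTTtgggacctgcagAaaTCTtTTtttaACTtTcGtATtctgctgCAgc

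These ends fall into sets. Defa30 differed from Defa24 at 1 base and Defa26 at 13. Defa20, Defa21 and Defa22 had 33 to 34 bases that did not match it, a count that includes the unaligned bases at their ends. Defa5 differed at 28 bases. Over the whole transcripts, joining genes of at least 90% identity put Defa3, Defa17, Defa23, Defa24, Defa26 and Defa30 in a first set, Defa20, Defa21 and Defa22 in a second, and left Defa5 in a set of its own. The 90% limit was chosen after the values below had been seen. Among the 10 genes, pairs within the first set were 88.7 to 99.7% identical and pairs within the second 91.9 to 99.5%. Pairs across those sets were 81.2 to 86.8% identical. The sets are interleaved along the chromosome, Defa21 being the first of the 10 genes, Defa22 the fourth and Defa20 the seventh.

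The identity limits what a 50-base read can tell. All of the 50-base windows of Defa20 also occurred in another Defa transcript, 86.7% of them in Defa32. The share was 99.7% for Defa5, 94.8% for Defa23, 92.2% for Defa3 and 92.0% for Defa17, whose shared windows were those of Defa3. It was 74.9% for Defa22 and 72.9% for Defa21, mostly with each other, and 52.4% for Defa30, 40.2% for Defa26 and 28.1% for Defa24. No window of the 10 genes was found in a transcript outside the family. The counting kept 1 position for a read that fitted several, so counts of near-identical genes were split between them: Defa23 and Defa31, which shares all of its windows with Defa23, had count ratios of 0.995 to 1.01 in all 12 SI libraries. Values of single genes are therefore given with their sum and with those of their near copies.

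Promoter windows were in the RefSeq table for 5 of the 10 genes, and 4 are shown, a pair from the set of Defa20 and a pair from the set of Defa24. Each gives the 250 bases before the start on GRCm38.p6, plus strand. Capitals mark CANNTG (the E-box that basic helix-loop-helix factors such as ATOH1 bind) and ATCAAAG, which is CTTTGAT (a TCF motif) on the other strand. The promoter of Defa22, at chr8:21162027-21162276, was identical to that of Defa21. Defa21 lies at chr8:21025295-21025544, Defa20 at chr8:21509008-21509257, Defa23 at chr8:21054790-21055039 and Defa30 at chr8:21134400-21134649.
Defa21: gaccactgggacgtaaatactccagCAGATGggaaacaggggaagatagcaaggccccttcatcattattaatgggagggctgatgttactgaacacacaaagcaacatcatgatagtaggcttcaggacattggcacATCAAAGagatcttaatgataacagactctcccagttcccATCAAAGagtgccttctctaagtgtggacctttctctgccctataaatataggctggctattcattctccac
Defa20: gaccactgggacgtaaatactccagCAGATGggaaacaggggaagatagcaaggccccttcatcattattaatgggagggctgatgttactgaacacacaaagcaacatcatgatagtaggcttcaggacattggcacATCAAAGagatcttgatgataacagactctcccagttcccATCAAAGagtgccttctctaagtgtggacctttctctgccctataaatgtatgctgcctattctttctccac
Defa23: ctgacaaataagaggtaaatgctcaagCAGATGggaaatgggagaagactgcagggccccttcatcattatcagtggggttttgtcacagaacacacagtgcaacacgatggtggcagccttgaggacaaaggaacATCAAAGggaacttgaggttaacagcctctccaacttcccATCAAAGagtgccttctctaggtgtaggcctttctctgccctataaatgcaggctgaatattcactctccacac
Defa30: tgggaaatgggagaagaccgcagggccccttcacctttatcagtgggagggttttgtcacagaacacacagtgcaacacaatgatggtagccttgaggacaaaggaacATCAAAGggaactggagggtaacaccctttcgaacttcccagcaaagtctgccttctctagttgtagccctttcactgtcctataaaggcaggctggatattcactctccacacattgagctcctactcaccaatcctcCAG

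The last capitals of Defa30 begin an E-box that runs past the start. Both strands were searched in windows of 300 bases that add the first 50 after the start. CTTTGAT was in 5 of these 5 windows and in 3.73% of 32851 RefSeq promoters. CANNTG was in 5 of 5 and in 72.3% of all promoters. CAGCTG, an E-box core that is one form of CANNTG, was in 0 of 5 and in 16.3% of all. The Defa20 promoter was 98.0% identical to that of Defa21, and the Defa23 promoter 80.5%. Defa23 and Defa30 were 90.9% identical to each other. The motifs marked in Defa23 began at -223, -114 and -74 from the start, against -225, -112 and -72 in Defa20 and Defa21. The motifs therefore did not divide the sets. These are matches of letters only.

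In the SI the 10 genes made up 3.49 to 6.78% of all counts in WT and 2.93 to 5.07% in 9S/T-A. Per kilobase of exon, Defa24 ranked first in both genotypes, at 54351 ± 14034 CPM per kb in WT (mean ± SD, n = 6) and 43451 ± 9820 in 9S/T-A. Defa30 ranked second, at 30456 ± 8863 in WT, and was followed by Defa17, Defa3 and Defa23 at 16059 to 20261. The ranges of these first 5 genes overlapped from each to the next in WT. A gap then separated Defa23, with a lowest WT library of 7945 CPM per kb, from Defa20, with a highest of 4434. Defa20, Defa5, Defa22 and Defa21 lay between 2550 and 2981 with overlapping ranges, and Defa26 was last, at 1053 ± 275. In 9S/T-A the gap below the first 5 genes was gone: the ranges of Defa3, at 11262 ± 2207 CPM per kb, and Defa20, at 6942 ± 2201, overlapped. There Defa24 stood clear of Defa30, and Defa5 passed to the ninth place, below Defa20, Defa21 and Defa22.

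The first question was whether defensin transcripts differed between the genotypes in the SI. Defa20 and Defa21 were about 2.3-fold higher in 9S/T-A, the remaining gene of their set, Defa22, had a fold of 1.87 that did not pass the test, and 6 of the other 7 genes had values below those of WT that did not pass either. The sum of the 10 genes did not separate the groups. Calls were made with edgeR's quasi-likelihood test on the counts, two-sided, with Benjamini-Hochberg adjustment over 16236 genes and a limit of 0.05. No label says what the library numbers mark, so p-values measure the spread between these libraries. By this rule 1.03% of all genes were higher in 9S/T-A and 0.905% lower, against 2 and 0 of the 10 defensins.

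**Figure D1:**
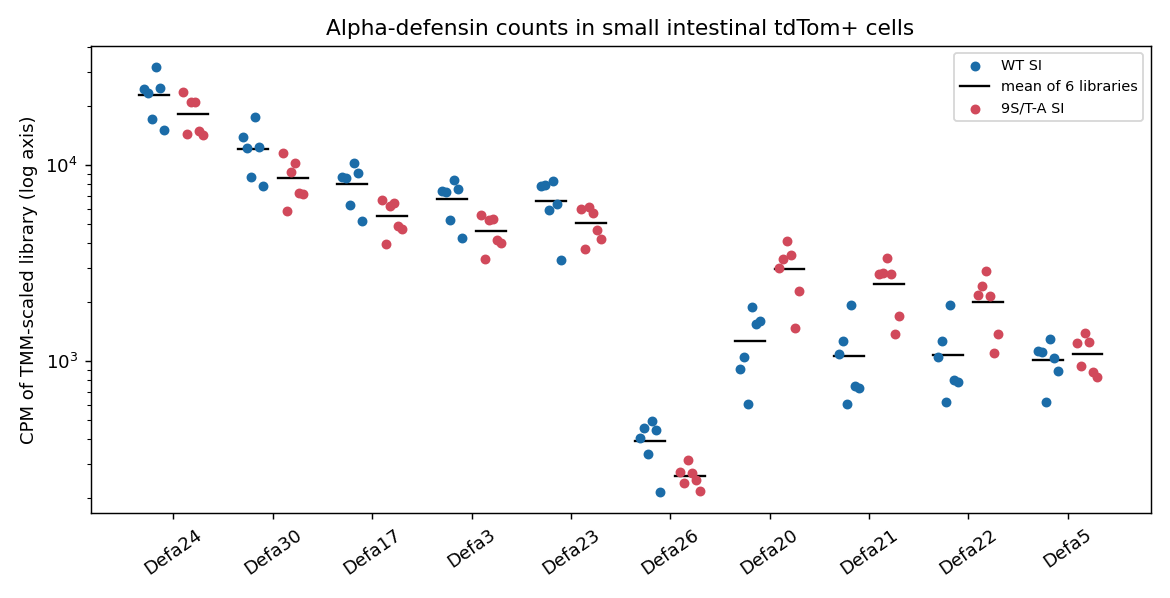
Counts of each of the 10 genes in the 12 SI libraries, as CPM on a log axis. Each point is a library and each bar the mean of 6; the 9S/T-A points of Defa20, Defa21 and Defa22 lie mostly above those of WT, and those of Defa17, Defa3 and Defa26 mostly below.

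Defa20 had a lowest, median and highest value of 601, 1300 and 1885 CPM in WT SI. In 9S/T-A SI these were 1480, 3160 and 4112 CPM. The groups overlapped through 9S/T-A library 6, the lowest of its group, which lay below WT libraries 5, 6 and 7. The log2 fold change was 1.22 with a standard error (SE) of 0.275 and an edgeR adjusted p of 0.0351. The 9S/T-A library was the higher of the pair at 5 of 6 library numbers.

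Defa21 ran from 606 CPM over a median of 919 to 1946 CPM in WT SI. It ran from 1382 over 2778 to 3345 CPM in 9S/T-A SI. Only WT library 5, the highest of its group, reached into the 9S/T-A range. The log2 fold change was 1.21 (SE 0.280, edgeR adjusted p = 0.0400), and 9S/T-A was higher at 6 of 6 numbers.

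Defa22, which shares most of its windows with Defa21, ran from 622 over 926 to 1930 CPM in WT SI and from 1095 over 2155 to 2898 CPM in the mutant. WT libraries 3 and 5 lay above the lowest 9S/T-A library, number 6. Its log2 fold change was 0.90 (SE 0.276, edgeR adjusted p = 0.122), so it was not called. Its near copy differed from it in degree between the genotypes: the ratio of Defa21 to Defa22 counts was 0.936 to 1.04 over the WT SI libraries and 1.15 to 1.29 over those of 9S/T-A.

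The calls of Defa20 and Defa21 were close to the limit. No member was called when any 1 of 7 of the 12 libraries was left out: WT library 2, 3, 4 or 6, or 9S/T-A library 3, 4 or 5. With the library number as a block only Defa21 was called, where 1.41% of all genes were called higher, and the adjusted p of Defa20 was 0.0687 (edgeR). DESeq2 called 6 of the 10 genes, with Defa20, Defa21 and Defa22 higher and Defa3, Defa17 and Defa26 lower. It called more genes altogether, 2.46% of all tested higher and 2.35% lower. Plain library totals, which moved the median of all genes to a log2 fold change of -0.11, called Defa21 higher and the same 3 genes lower, where 0.48% of all genes were called higher and 1.17% lower.

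Defa24, the most abundant, ran from 15210 over 23889 to 31674 CPM in WT SI. In 9S/T-A SI it ran from 14324 over 17935 to 23582 CPM. The ranges overlapped, with 3 of the 6 9S/T-A libraries below the lowest WT library. The log2 fold change was -0.32 (SE 0.192, edgeR adjusted p = 0.445).

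Defa30 ran from 7873 over 12365 to 17540 CPM in WT SI and from 5821 over 8252 to 11566 CPM in 9S/T-A. Its fold change was -0.50 as log2 (SE 0.209, edgeR adjusted p = 0.256). Defa17 ran from 5215 over 8675 to 10286 CPM in WT and from 3971 over 5571 to 6654 CPM in 9S/T-A, and its 9S/T-A library was the lower at all 6 numbers. Its log2 fold change was -0.55 (SE 0.177, edgeR adjusted p = 0.140). Defa3, with the same coding end, ran from 4270 over 7340 to 8446 CPM in WT and from 3334 over 4717 to 5583 CPM in 9S/T-A, with ratios to Defa17 of 0.819 to 0.853 in all 12 libraries. Its log2 fold change was -0.54 (SE 0.176, edgeR adjusted p = 0.150). In Defa3, Defa17 and Defa30, WT libraries 4 and 7 were the lowest of their group and lay within the 9S/T-A range.

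Defa26, the least abundant, ran from 215 over 425 to 495 CPM in WT and from 217 over 259 to 314 CPM in 9S/T-A. WT library 7 was the lowest of all 12, and the other 5 WT libraries were above every 9S/T-A library. At -0.59 on the log2 scale (SE 0.165, edgeR adjusted p = 0.0890), its difference was the nearest to a call in this direction, and it was called lower without WT library 7. Defa23 ran from 3265 over 7092 to 8334 CPM in WT and from 3747 over 5209 to 6129 CPM in 9S/T-A, at a log2 fold change of -0.38 (edgeR adjusted p = 0.394). Defa5 ran from 620 over 1073 to 1304 CPM and from 835 over 1092 to 1392 CPM, at 0.11 (edgeR adjusted p = 0.808). Both genes had overlapping groups, and WT library 7 was the lowest of all 12 for Defa23. On CPM, 0 of the 10 genes separated the groups without overlap, where 2.07% of all genes tested did so in either direction.

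**Figure D2:**
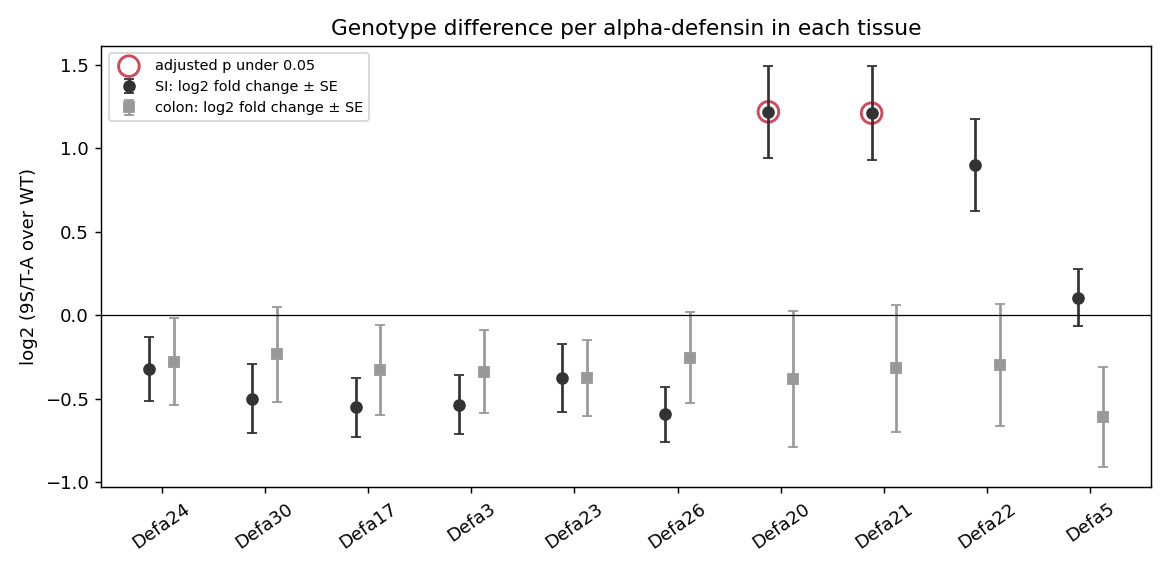
Log2 fold change of 9S/T-A over WT for each gene, with its SE, in SI (circles) and colon (squares). Rings mark the 2 genes with an adjusted p under 0.05, Defa20 and Defa21 in SI; in colon all 10 estimates are below 0 and none was called.

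Summed over the 10 genes, WT SI libraries held 40061, 64592 and 83841 CPM (lowest, median and highest). The 9S/T-A SI libraries held 40831, 49906 and 62837 CPM. The 9S/T-A range lay wholly inside that of WT, and the log2 ratio of the group means was -0.27. With all 39 Defa genes the ratio was -0.20, and with 6 more genes that RefSeq but not GENCODE names as Defa it was -0.16. No test was run on sums.

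The make-up of the pool differed as well, the members' gains in share from WT SI to 9S/T-A SI summing to 9.59% of the pool. Defa20, Defa21 and Defa22 together took 5.59 ± 1.47% of the 10 genes' counts in WT SI (SD, n = 6), from 3.95 to 7.79%. In 9S/T-A SI they took 14.6 ± 3.91%, from 9.64 to 20.8%, so that the lowest 9S/T-A library lay above the highest WT library. Defa30 and Defa17 took smaller shares in each 9S/T-A library than in any WT library, with means of 16.8 against 19.7% and 10.9 against 13.2%. A gain in share by some of the 10 genes lowers the shares of the others, so these are not separate decreases. On CPM both genes overlapped between the groups, and edgeR called neither. Defa24 took 35.8 and 37.3%. Shares are free of the scaling between libraries, and they were not tested, since the members had been listed with earlier results in view.

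**Figure D3:**
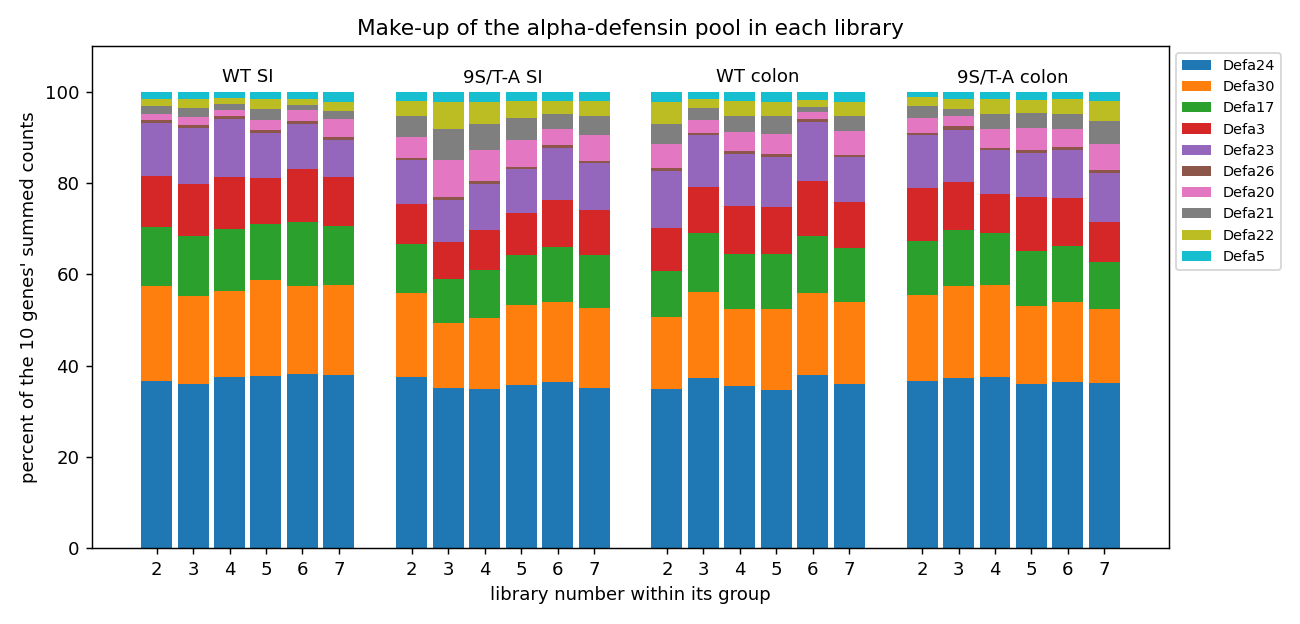
Percent of the summed counts of the 10 genes that each gene took, one bar per library, by group. In SI the segments of Defa20, Defa21 and Defa22 are wider in each 9S/T-A library than in any WT library when added up; those of the colon groups overlap.

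The same differences were looked for in the rest of the family. Of the 29 other Defa genes, 20 passed the filter on low counts in SI, 4 of them were called higher in 9S/T-A and 0 lower. The called genes were Defa32, which shares most of its windows with Defa20 (1.09, SE 0.263, edgeR adjusted p = 0.0489), the pseudogene Defa-ps18 (0.84), Defa25 (0.82) and Defa28 (0.76), each as a log2 fold change. The last 3 are not separate calls, since Defa-ps18 holds 63.0% of the windows of Defa28 and 57.4% of those of Defa25. Nor is the call of Defa32 separate from that of Defa20, since all windows of both occur in another Defa transcript. Defa25 and Defa28 fall in the sequence set of Defa24, so the sets did not divide the family by direction, and both were scarce, at 1.29 and 11.6 CPM in WT SI. Defa2 and Defa33, of the set of Defa20, had log2 fold changes of 0.98 each and edgeR adjusted p of 0.0622 and 0.0639. These values are not separate from that of Defa20 either, which holds 86.2% of the windows of Defa2 and 72.9% of those of Defa33. Among the most abundant others, Defa31 had a log2 fold change of -0.38, Defa29 of -0.08, Defa37 of 0.02, Defa36 of 0.03 and Defa35 of 0.07, and none of these 5 was called. The 6 RefSeq-named genes lay between -0.30 and 0.18, and 0 were called by edgeR or DESeq2 or had an unadjusted p under 0.05. Of 73 other genes within 1 Mb of a member, 22 passed the filter and 0 were called by edgeR or DESeq2, with 4 lower in 9S/T-A at an unadjusted p under 0.05. Such an edgeR p was reached by 2556 of the 16236 genes tested, in either direction.

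Genes that act on defensins or are made beside them were taken from lists. Among 12 genes for granule processing and secretion, 11 were tested and 1 was called, lower in 9S/T-A: Mmp7, whose product activates the precursors. It ran at 1047 ± 173 CPM in WT SI and 440 ± 161 in the same tissue of 9S/T-A (SD, n = 6). Its fold change was -1.25 as log2 (SE 0.219, with an adjusted p of 0.00720 by edgeR). Its genotype effect differed between the tissues, by 2.1 on the log2 scale (SE 0.451, edgeR adjusted p = 0.0318, libraries unpaired). Of 15 regulators of Paneth cell specification and maturation, 15 were tested and 0 called, by edgeR and by DESeq2, with 1 above and 6 below WT at an unadjusted p under 0.05. Over all 16236 genes, 2556 had such an edgeR p in either direction. Atoh1 itself, expressed in both lines from the altered locus, stood at 92.3 ± 15.5 and 75.0 ± 11 CPM, a difference of -0.30 on the log2 scale (SE 0.118, edgeR adjusted p = 0.230). Other Paneth cell products were lower for 5 of 15 and higher for 0. Mptx2, a pentraxin-like protein, changed by -4.64 as log2 (SE 0.328, with an adjusted p of 1.69e-06 by edgeR), the ribonuclease Ang4 of -1.11, the lectin Itln1 of -0.98 and Mptx1 of -0.71. Lysozyme, the classical Paneth product (Lyz1), was at 26128 ± 4277 and 23544 ± 3357 CPM and was not called (-0.15, SE 0.143, edgeR adjusted p = 0.645). Of 53 other antimicrobial genes, most of them beta-defensins, 5 were tested and 1 was called, the peptidoglycan-binding Pglyrp1, at a log2 fold change of -0.54.

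Markers of other cells moved between the SI groups as well. Over all 16236 genes tested there, 2556 had an unadjusted edgeR p under 0.05 in either direction. The 7 Paneth markers other than defensins summed to 32601 to 49133 CPM in WT and 22686 to 34632 in 9S/T-A. Of these 7, edgeR called 4 lower, namely Mmp7, Mptx2, Ang4 and Itln1, which are also among the genes listed above, and the median log2 fold change was -0.98. The 8 goblet markers summed to 316253 to 444830 CPM in WT and 321832 to 510218 in 9S/T-A, with 0 called by edgeR, 2 called higher by DESeq2 and 2 higher at an unadjusted p under 0.05. The 5 tuft markers summed to 52.2 to 107 CPM in WT and 19.4 to 87.9 in 9S/T-A, with Pou2f3 called lower by edgeR and 3 of the 5 by DESeq2. The 7 absorptive markers summed to 2058 to 5490 and 3500 to 6678 CPM, with 0 called by edgeR, 2 called higher by DESeq2 and 3 higher at an unadjusted p under 0.05. The 7 enteroendocrine markers summed to 267 to 554 and 307 to 599 CPM. The hormone gene Sct was called higher by edgeR, with group means of 95.1 ± 11.4 (WT) and 210 ± 40.5 CPM (9S/T-A; SD, n = 6), and 4 others were lower at an unadjusted p under 0.05. Of 5 stromal markers, which summed to 6.54 to 18.7 and 3.27 to 7.96 CPM, 2 were tested and Vim was called lower (-1.30). The part of these in the defensin values was not tested.

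Within the SI groups the 10 genes varied together to unequal degrees. After each genotype's mean was taken off, pairs of the set of Defa24 had correlations of 0.769 to 0.999 over the 12 libraries, a median of 0.923. Pairs of that set with Defa20, Defa21 or Defa22 had 0.035 to 0.748, a median of 0.571. Those with Defa20 were the lowest, from 0.035 with Defa23 to 0.459 with Defa24. Near copies share reads, and all genes share the library's scaling. The genes outside the family most like the summed defensins were Bambi (0.937), Zfp787 (0.929), the pancreatic lipase-related Pnliprp2 (0.925), Sirpa (0.881) and Ftl1-ps2 (0.867), and 5 of the genes that only RefSeq names Defa had 0.868 to 0.925. Lyz1 had 0.727 and Mmp7 0.546. These are descriptions over 12 libraries that share their scaling, with no test.

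The second question was whether the genotypes differed in the colon. The 10 genes were counted there at 2188 to 6926 counts per library in sum, or 0.00393 to 0.0142% of all counts. Whether these counts came from transcripts of colon cells was not tested, which limits what the colon comparison can show. None of the 10 was called (edgeR, 16997 genes, of which 0.318% were called in either direction), and DESeq2 called 0. At an unadjusted edgeR p under 0.05 lay 0 of the 10 and 1497 of the 16997 genes. All 10 estimates were below 0, from -0.23 for Defa30 to -0.61 for Defa5 (SE 0.300, edgeR adjusted p = 0.591). Their sum was 34.6, 45.3 and 101 CPM in WT colon (lowest, median and highest) and 30.3, 41.5 and 61.0 CPM in 9S/T-A colon. WT library 7 was the highest, with a next value of 56.9 CPM, and without number 7 in both groups 5 of the 10 estimates were above 0. Among other Paneth products Clps, pancreatic colipase, was called higher in 9S/T-A (log2 fold change 1.21, SE 0.119, edgeR adjusted p = 0.000329). Mmp7 was at 6.44 ± 2.59 and 11.6 ± 6.96 CPM and not called. Of 14 such products tested, 6 were higher and 0 lower at an unadjusted edgeR p under 0.05. The 7 Paneth markers other than defensins summed to 845 to 1983 CPM in WT colon and 1038 to 2605 in 9S/T-A colon. Their log2 fold changes ran from 0.22 to 1.01, with 0 called by edgeR. At an unadjusted edgeR p under 0.05, 3 of them were higher and 0 lower. Of the cell markers, edgeR called the goblet gene Spink4 higher (0.68) and Cd74, of the leukocyte list, higher (4.56), each as a log2 fold change. The 4 tested genes of the leukocyte list had a median of 0.19. The goblet markers summed to 36746 to 57742 CPM in WT colon and 37666 to 83253 in 9S/T-A colon, and the 6 leukocyte markers to 8.73 to 17.2 and 15.3 to 472 CPM. In SI these 6 summed to 2088 to 2867 CPM in WT and 1547 to 2427 in 9S/T-A, and which cells they came from was not tested. Of 5 cycling markers, 0 were called by edgeR, with 4 higher and 0 lower at an unadjusted p under 0.05. The part of the marker differences in the colon values was not tested.

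Whether the genotype difference itself differed between the tissues was tested as an interaction over all 24 libraries, taken as unpaired. In that fit 0.412% of 17953 genes were called. None of the 10 defensins was, by edgeR or DESeq2. At an unadjusted edgeR p under 0.05 lay 1740 of the 17953 genes and 4 of the 10. These were Defa20, with a difference of -1.61 on the log2 scale between the colon and SI effects (SE 0.501, edgeR adjusted p = 0.193), Defa21 (-1.54, adjusted p = 0.192), Defa22 (-1.22, adjusted p = 0.340) and Defa5 (-0.73, adjusted p = 0.474), adjusted in the same way. The other 6 lay between -0.01 and 0.31. These differences rest in part on the colon counts, whose source was not tested. With counts added up over libraries, Defa20, Defa21 and Defa22 took 10.4% of the 10 genes' counts in WT colon and 10.1% in 9S/T-A colon. In SI they took 5.53% in WT and 14.6% in 9S/T-A.

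The third question was how far the tissues differed within a genotype. All 10 genes were lower in colon than in SI in both genotypes, where 30.4% of genes in WT and 28.0% in 9S/T-A were called lower in colon. Log2 fold changes of colon over SI ran from -10.39 for Defa26 to -9.19 for Defa20 in WT, with edgeR adjusted p of 1.17e-13 to 6.05e-10. They ran from -10.87 for Defa21 to -10.07 for Defa26 in 9S/T-A, with edgeR adjusted p of 2.24e-15 to 3.50e-12. These fits were unpaired. With the library number as a block, edgeR adjusted p were 6.85e-12 to 2.18e-09 in WT and 2.44e-12 to 4.64e-10 in 9S/T-A. The sum was 61050 ± 15733 CPM in WT SI and 53.3 ± 25.1 CPM in WT colon, a ratio of 1145, and 50733 ± 10789 against 42.9 ± 10.5 CPM in 9S/T-A, a ratio of 1182 (SD, n = 6 each). Between same-numbered libraries the ratio was 398 to 2266 in WT, lowest for number 7, and 967 to 1941 in 9S/T-A. With plain library totals, which moved the median of all genes by 0.74 and 0.85, the 10 genes lay at -10.41 to -9.20 and -10.90 to -10.11 relative to that median.

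**Figure D4:**
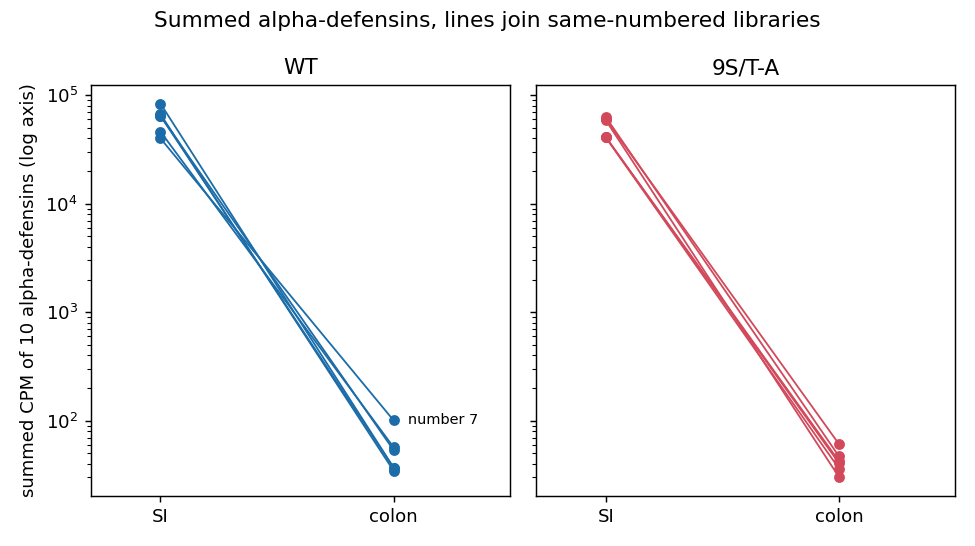
Summed CPM of the 10 genes in SI and colon on a log axis, with a line for each library number and a panel for each genotype. The colon libraries lie between 30.3 and 101 CPM, WT number 7 being the highest, and the SI libraries between 40061 and 83841 CPM.

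Colon counts of single genes were low but above 0 in each library, from 13 to 33 for Defa26 and from 789 to 2492 for Defa24. Among 1602 genes with at least 100 CPM in WT SI, the 10 defensins had WT colon levels of 0.0753 to 0.174% of those in SI. They were among the 32 genes with the lowest percentages, where 8 genes outside the family also lay: Lyz1 (0.105%), Habp2 (0.105%), Olfm4 (0.105%), Lyz2 (0.106%), Apoa1 (0.125%), Apoa4 (0.125%), Lct (0.165%) and Npc1l1 (0.172%). These 8 were named after their values were seen. They include stem cell (Olfm4) and absorptive cell genes (Apoa1, Apoa4, Lct and Npc1l1) as well as Lyz1 and Habp2 of the Paneth product list, which does not hold Lyz2. Mmp7 and Itln1, by contrast, were at 0.615 and 0.194%.

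The make-up of the colon pool did not follow genotype. Defa20, Defa21 and Defa22 together took 10.1 ± 3.67% of the 10 genes' counts in WT colon and 10.2 ± 3.12% in 9S/T-A colon (SD, n = 6). Both means lay between those of WT SI and 9S/T-A SI. With counts added up over libraries, these 3 genes took 10.2% in the 12 colon libraries and 9.66% in the 12 SI libraries. No gene's share of the colon total differed from its share of the SI total by more than 0.469 percentage points, whereas the WT and 9S/T-A totals in SI differed by up to 3.77. Moving from the SI total to the colon total, 1.10% of the pool changed gene, against 5.53% between WT colon and WT SI and 5.04% between 9S/T-A colon and 9S/T-A SI. Colon counts of these 3 genes were 27 to 370 a gene and library, so single colon shares are less precise than those of SI, and the source of the colon counts was not tested.

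**Figure D5:**
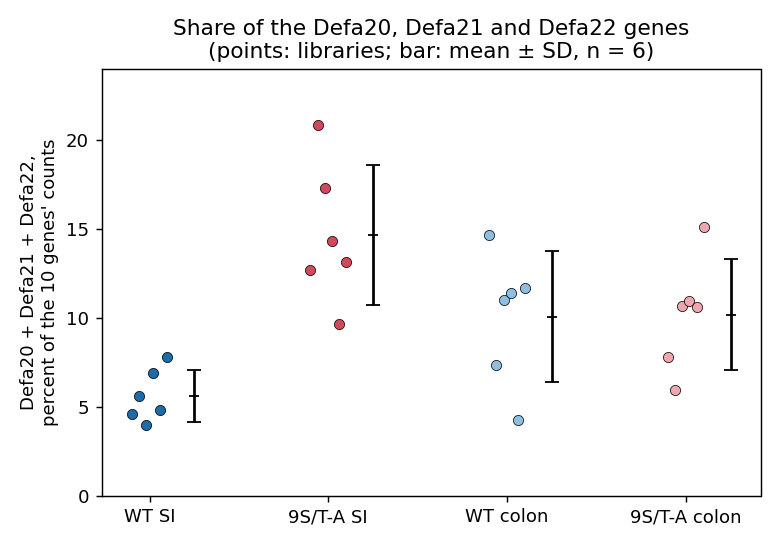
Share of Defa20, Defa21 and Defa22 together in the counts of the 10 genes, a point per library and the mean ± SD of 6 beside it. The SI groups do not overlap, at 3.95 to 7.79% and 9.64 to 20.8%, and both colon groups have means near 10%.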

How the data were processed

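The submitters sequenced stranded mRNA libraries as 50-base single reads. Per the labels and the file headers the authors aligned with TopHat2 2.1.1 to GRCm38 and deposited raw counts per gene from Subread 1.5.2 (featureCounts, exons summed by gene, reverse strand, primary alignments), one table per library. A read that fits several genes was counted at 1 place, so counts of near-identical defensins are split between them.

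GENCODE M21 named 44585 of the 45513 gene identifiers (97.96%), and 0 rows named no gene. Groups came from the labels. The 10 genes and all gene lists were chosen with earlier results of these data known. Counts were tested with edgeR 4.0.16 (R 4.3.3; filterByExpr, TMM, quasi-likelihood) within the groups compared and over all 24 libraries for the interaction, with Benjamini-Hochberg adjustment over all genes tested. The study's own tool, DESeq2 (1.14.1 there, 1.42.0 here), was an alternative, beside other scalings and filters, a looser threshold of 0.1, sex, a block on the library number, and each library left out in turn. The genotype and tissue comparisons share libraries. On simulated data with 200 genes changed 2-fold, 81% were recovered in SI (16236 genes, 7 false calls) and 79% in colon (16997 genes, 4 false calls). Those counts were drawn independently for each gene and library, with no reads shared between genes and no link between same-numbered libraries. They therefore do not give the error rate for near-identical defensin genes.

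Named genes were the 10 members, the 6 most abundant other Defa genes in SI, up to 4 called genes of each list with the largest fold change, Mmp7, Lyz1 and Atoh1, and the 5 genes of at least 1 mean CPM that were most alike in log2(CPM + 1) after genotype means were taken off. The called Defa genes below that rank, Defa2, Defa33, Defa34, the marker Pou2f3 and genes given as references were named after their values were seen.

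Within a genotype, libraries that bear one number in both tissues deviated from their group means together (lowest r 0.168 in WT and 0.159 in 9S/T-A). Same-numbered libraries were therefore set side by side between tissues. The tissue and interaction tests were nonetheless unpaired, and the number entered them only as a block in an alternative. Between genotypes not every number deviated together, and libraries there were taken to share only a number and the sex that goes with it. The design text counts 6 mice in all, whereas a supplementary legend of the study gives 6 for each genotype, and the labels do not tie libraries to mice. Shared 50-base windows were counted on GENCODE M21 transcripts, since the genome sequence was not used here. Promoters came from the RefSeq table, and protein sequences were not used here. Python 3.11.15 was used for levels and sequences. A list of colon marker genes is not reported here.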

Additional observations from a re-analysis of the deposited data

Results flagged for a closer look

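Of 44 groups of 6 libraries examined for the 10 genes and their sum, 5 held a library whose gap to its neighbour took more of the group's range than Dixon's test allows at 6 values. Chance flags about 1 in 20 such groups, and the groups are not independent, since the genes share libraries and reads. WT colon library 7 gave 4 of the 5. Its Defa24 level was 36.3 CPM with a next value of 20.2. Its Defa30 level was 18.1 CPM with a next value of 10.1. Its Defa5 level was 2.26 CPM with a next value of 1.19. Its sum over the 10 genes was 100.8 CPM with a next value of 56.9. The other was 9S/T-A colon library 4, with 1.04 CPM of Defa5 and a next value of 0.739. The cause was not tested.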

How the results depend on the processing

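The number of defensins called between genotypes in SI, 2 by edgeR, was 6 by DESeq2, 4 with plain library totals and 1 with the replicate block (Defa21). It ran from 0 to 3 over the 12 fits that each left out 1 library, with 0 in 7 of them, and was 1 higher and 1 lower without number 7 in both groups, an alternative chosen after seeing the data. Over all alternatives the adjusted p ran from 0.000297 to 0.0890 for Defa20 and from 0.000460 to 0.101 for Defa21, with both above 0 throughout. Between genotypes, libraries of the same number had deviations that correlated at -0.095 to 0.696 in SI (mean 0.192, over 0.1 at 4 of 6 numbers) and at 0.020 to 0.853 in colon (mean 0.412, over 0.1 at 5 of 6), against means of -0.035 and -0.066 for other numbers. The number was thus not taken as a pairing, though 2 of 6 numbers in SI and 4 of 6 in colon correlated best with their own, and each number stands for 1 sex in all groups. With the replicate block 477 genes were called in SI, against 315 without it, and 385 against 54 in colon, and no tissue call of a member changed. The counts of 0 called in colon and in the interaction and of 10 called between tissues held in every alternative run. Estimates near 0 turned sign. Defa5 in SI was -0.0023 with plain totals and ran from -0.0011 to 0.19 with 1 library left out. In colon without number 7 in both groups, Defa3 was 0.019, Defa17 0.026, Defa20 0.054, Defa24 0.064 and Defa30 0.15, and with 1 library left out Defa20 ran from -0.58 to 0.14, Defa22 from -0.48 to 0.058, Defa24 from -0.41 to 0.026 and Defa30 from -0.39 to 0.085, each highest without WT library 7. In the interaction, Defa23 (-0.0094) was 0.049 with plain totals, 0.015 with no gene filter, 0.0063 with a mean of at least 10 counts and 0.0046 with the replicate block, and with 1 library left out Defa23 ran from -0.10 to 0.20 and Defa24 from -0.10 to 0.32. The summed log2 ratio of colon to SI was -9.45 in WT and -9.44 in 9S/T-A with plain totals, which shift all genes. In SI, plain totals also moved the share of calls that were higher in 9S/T-A from 53.3 to 29.1%. List counts in SI ran from 1 to 3 lower for granule genes, 2 to 7 lower for other Paneth products, 0 to 2 lower for other antimicrobials and 1 to 7 higher for other Defa genes. The cause of these changes was not tested. Colon counts of 13 to 33 for Defa26 limit what its colon values can show.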
